A study of Schmidtea mediterranea with 58 samples.

Results

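The H3K4me3 regions that differ between X1 and Xins cells of the planarian flatworm *Schmidtea mediterranea* were described from a table of regions that the authors listed for a difference between these cells. One region was counted for each unique scaffold, start and end, which gave 1377 regions out of the 16157 regions listed in the 7 tables of the series. The X1 group held 2 libraries of sorted X1 cells from worms that received no RNAi, and the Xins group held 2 libraries of sorted Xins cells from worms that likewise received none. All 4 were made by chromatin immunoprecipitation with 1 lot of a Millipore antibody against H3K4me3 and sequenced. The labels of the series list 58 samples, 29 of them H3K4me3 libraries and 29 input libraries. The remaining 6 tables compare *set1* or *mll* RNAi with *unc* RNAi controls. The labels do not say whether the 2 libraries of a group came from separate worms or sorts, so p-values measure only the spread between these libraries.

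H3K4me3, the trimethylated form of lysine 4 of histone H3, is a mark of nucleosomes around the starts of transcribed genes and is laid down by methyltransferase complexes of the SET1 and MLL families. In many animals it forms a narrow domain at the start of widely used genes and broader domains at genes that are used in particular cell types. X1 is the planarian sort gate of cells with more than the resting DNA content, which irradiation removes and which holds dividing stem cells (neoblasts). Xins cells are those that irradiation spares, mostly differentiated cells of all tissues, so the Xins signal is a mixture over many cell types. In such bulk chromatin, fewer cells that carry the mark and less mark per cell cannot be told apart. The tables give gene identifiers without gene names and no reference annotation was used here, so the cell type markers of stem cells, neurons, muscle, gut and epidermis could not be looked up.

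The table calls its groups treatment and control, and X1 was taken as treatment from the order of the cell names in the table's title. Libraries that the table did not use hardly bear on this order. Only 8 regions higher in X1 were also listed in both *set1* RNAi tables of sorted cells, and there the enrichment of the *unc* control was higher in X1 than in Xins at 5 of 8 (medians 9.22 and 9.93). The table was cut off within a row, which was dropped. Its complete rows cover scaffolds 0 to 2142 of a first run and scaffolds 539 to 1547 of a second run, so all counts hold for the portion of the genome that was read. The values were whole multiples of the worth of 1 read, which gave the depth. The 4 libraries held 73316 and 243372 reads in the listed regions for X1 and 11060 and 54053 reads for Xins. The median region held 46 and 153 reads in the X1 libraries and only 6 and 30 reads in the Xins libraries.

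H3K4me3 was higher in X1 at 862 of the 1377 regions (62.6%, 95% interval 59.98% to 65.2%) and higher in Xins at 515 (37.4%, 34.8% to 40.0%). These and all later intervals of shares are exact Clopper-Pearson intervals, and they cover the counting of regions or reads only. Among the regions higher in X1, the median normalized count was 56.3 and 56.4 in the X1 libraries and 18.2 and 19.7 in the Xins libraries. Among those higher in Xins, it was 12.9 and 11.8 in X1 and 45.6 and 42.0 in Xins. Both libraries of a group gave like medians in each class.

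**Figure D1:**
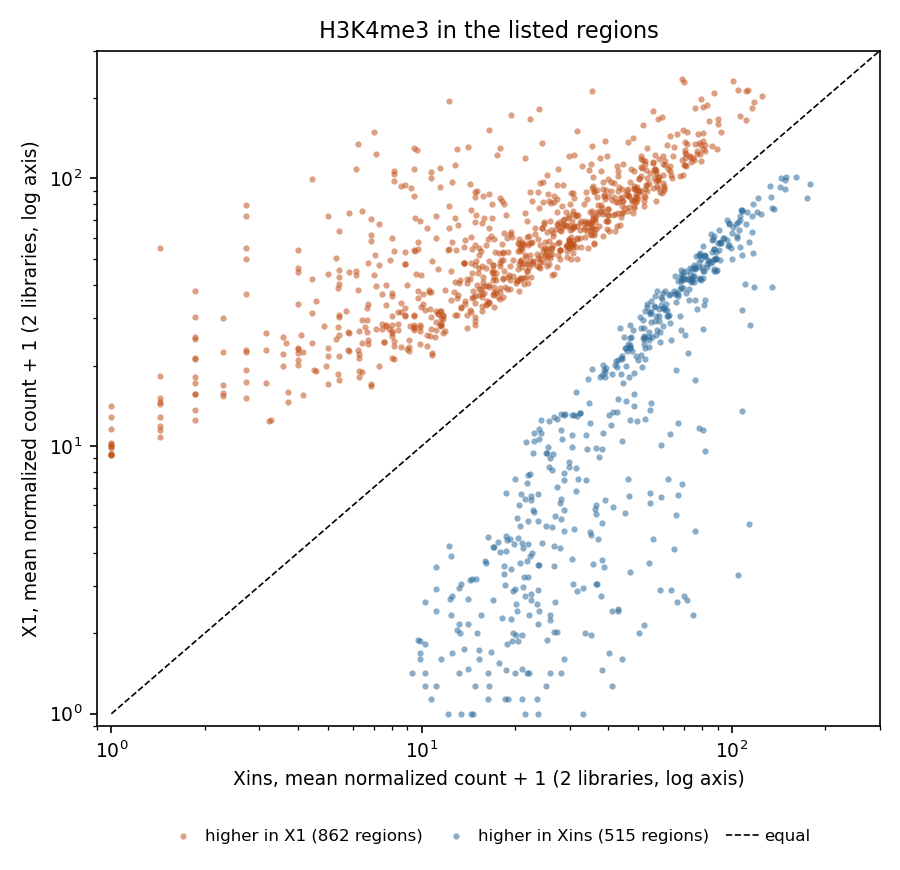
Mean normalized count + 1 of the 2 X1 libraries (vertical, log axis) against that of the 2 Xins libraries (horizontal, log axis), 1 point a region, with orange for the 862 regions higher in X1, blue for the 515 higher in Xins and a dashed line at equal levels. The band beside the line is empty because regions without a difference were not listed, and the median X1 level of the blue points (12.2) is lower than the median Xins level of the orange points (19.998).

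The limma fit of log2(normalized count + 1), with Benjamini-Hochberg adjustment over all 1377 regions, called 1217 regions (88.4%) at an adjusted p-value under 0.05. Of these, 774 (56.2%) were higher in X1 and 443 (32.2%) were higher in Xins, which left 88 and 72 regions of the classes uncalled. The libraries of the 2 groups did not overlap at 1371 regions (99.6%), all 862 higher in X1 and 509 of the 515 higher in Xins. Nothing is read from these shares, since the authors drew up the list from the same 4 libraries. The counts of calls changed when a library was left out. Without the first-listed X1 library, limma called 12 regions higher in X1 and 2 higher in Xins, and without the second-listed one it called 28 and 60, the lone X1 library being assumed to vary like the Xins libraries. With 1 or the other Xins library left out, it called 850 to 858 and 453 to 490, the lone Xins library being assumed to vary like the X1 libraries, which differ less. The X1 libraries differed from each other by a median of 0.13 on the log2 scale (r = 0.98 across the 1377 regions, which are not independent replicates), and the Xins libraries by 0.45 (r = 0.83).

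On the log2 scale, regions higher in X1 had a median difference (X1 minus Xins) of 1.36, with quartiles at 1.02 and 2.04. Those higher in Xins had a median of -1.37, with quartiles at -2.70 and -0.83. The differences were thus more spread on the Xins side, although the largest of all was in favour of X1 (5.37 against -5.11). Among regions with a mean normalized count of at least 20, the medians were 1.22 and -0.91. A read was worth up to 0.929 in X1 and up to 4.56 in Xins, and the part of this in the spread was not tested. A log2 difference of at least 2 was reached by 227 regions higher in X1 (26.3%) and by 196 higher in Xins (38.1%), and one of at least 3 by 107 (12.4%) and 100 (19.4%). The level over all listed regions was itself higher in X1, by a shift of 0.65 between the medians of the libraries. Relative to that shift, the class medians were 0.74 and -1.92, and the share of regions higher in X1 was 61.2%. On centred libraries limma called 294 regions higher in X1 and 509 higher in Xins, so the larger class of calls depends on the centring. More of the listed regions are higher in X1, so a shift of this sign can follow from the list itself. A difference in scaling between the libraries cannot be told apart from it.

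Enrichment over input is the authors' ratio of the immunoprecipitated signal to the input of the same cells, given as 1 pooled value a group. In regions higher in X1 its median was 16.3 in X1 and 5.48 in Xins, and in regions higher in Xins it was 12.8 in Xins and 4.38 in X1. Most regions higher in X1 were still enriched in Xins: the Xins enrichment was at least 5 at 459 of 862 (53.2%, 49.9% to 56.6%) and under 1 at only 75 (8.70%, 6.91% to 10.8%). Among regions higher in Xins, the X1 enrichment was at least 5 at 248 of 515 (48.2%, 43.8% to 52.6%) but under 1, that is, no more than input, at 161 (31.3%, 27.3% to 35.5%). Of the 151 regions that were higher in Xins by at least 2 on the log2 scale and lay at a gene start, 121 (80.1%, 72.9% to 86.2%) had an X1 enrichment under 1. The matching share among the 146 such regions higher in X1 was 45 (30.8%, 23.5% to 39.0%). The enrichments divide by inputs of different cells, and the Xins group has fewer reads than the X1 group. The part of either in this difference was not tested.

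The classes differed in where their regions lay. Regions higher in Xins mostly covered a gene start: 400 of 515 (77.7%, 73.8% to 81.2%) were at distance 0 from the nearest annotated start, and 42 (8.16%, 5.94% to 10.9%) lay 201 to 1000 bases away. Regions higher in X1 most often lay beside a start: 405 of 862 (47.0%, 43.6% to 50.4%) were 201 to 1000 bases away and 315 (36.5%, 33.3% to 39.9%) covered one. A further 74 regions higher in X1 and 22 higher in Xins lay within 200 bases without covering a start. Regions over 1000 bases away were few in both classes, 68 (7.89%) higher in X1 and 51 (9.90%) higher in Xins. Read the other way, 405 of all 447 listed regions that were 201 to 1000 bases from a start were higher in X1 (90.6%, 87.5% to 93.1%), against 315 of 715 at a start (44.1%, 40.4% to 47.8%).

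**Figure D2:**
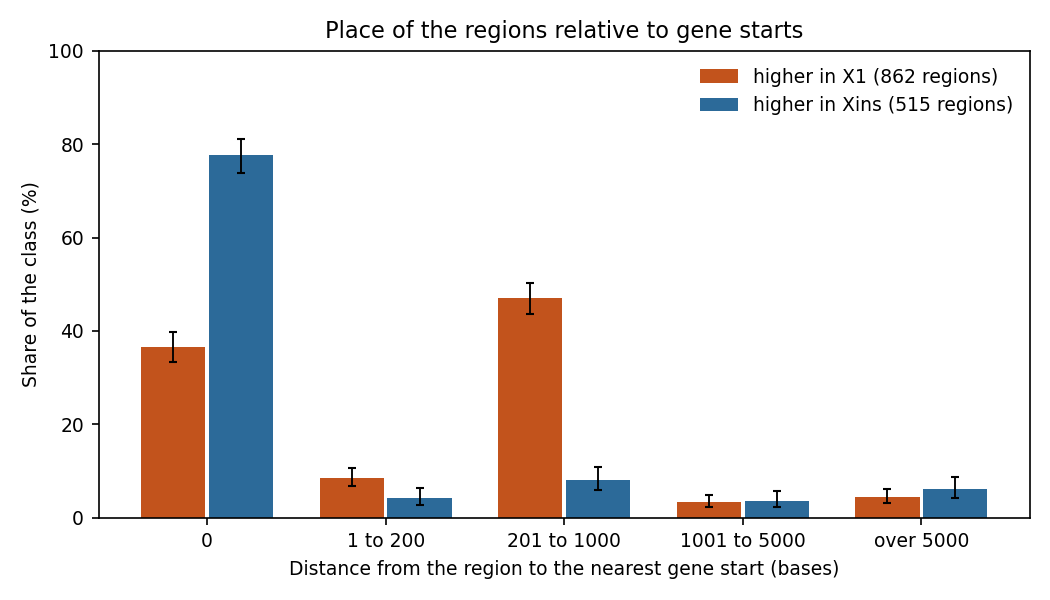
Share of each class (percent) by distance from the region to the nearest gene start (bases), for the 862 regions higher in X1 (orange) and the 515 higher in Xins (blue), with exact 95% intervals as bars. The blue class stands at 77.7% at distance 0 and the orange class peaks at 47.0% between 201 and 1000 bases, while both are low beyond 1000 bases.

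The regions of the 2 classes had similar lengths (medians 1500 bases in X1 and 1600 in Xins, from 1000 to 4800 overall in steps of 100), and the difference in place was seen at equal length except among the longest. Of the regions of 1000 bases, 18 of 142 higher in X1 (12.7%) and 71 of 99 higher in Xins (71.7%) covered a start. Of those of 1100 to 1500 bases, 55 of 308 (17.9%) and 113 of 153 (73.9%) did, and of those of 1600 to 2000 bases, 91 of 220 (41.4%) and 123 of 156 (78.8%). Above 2000 bases the shares came close, 151 of 192 (78.6%, 72.2% to 84.2%) and 93 of 107 (86.9%, 79.0% to 92.7%). The difference was also seen in each run of scaffolds, with 36.2% and 37.7% of the regions higher in X1 and 77.2% and 79.6% of those higher in Xins at a start.

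The position of a gene start could be worked out where several regions of any table gave distances to the same gene. For all 1258 genes with at least 3 regions beyond distance 0, the distances shared at least 1 position. Of 3480 genes with such a position and a region at distance 0, it lay inside that region at 3478. The start was found for 439 of the 479 regions higher in X1 that lay 1 to 1000 bases away. Their centres were a median of 1158 bases from the start (quartiles 1016 and 1308), and their far edges 1817 bases. At 400 of the 439 (91.1%) the start itself lay inside a region listed in a whole-worm table. A start can be found only where other regions were listed near it or over it, and most listed regions are in the whole-worm tables. This share is thus partly set by how starts were found, and nothing is read from it. It also does not stand for regions without such neighbours. Regions higher in Xins that covered a start and could be placed (132 of 400) were centred a median of 236 bases from it, and those higher in X1 (88 of 315) 472 bases from it. The tables give no strand, so upstream and downstream could not be told apart.

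Among regions higher in X1, the size of the difference went with place. Regions higher in X1 that covered a start had a median log2 difference of 1.96 and a median length of 2000 bases, and 146 of 315 reached 2. Those 201 to 1000 bases away had 1.19 and 1300 bases, and 51 of 405 reached 2 (46.3% and 12.6%). Per 1000 bases of region, the median normalized count was 30.6 in X1 and 7.41 in Xins at a start, and 41.7 in X1 and 17.5 in Xins beside it. The regions beside a start were thus higher in both populations. Enrichment followed, with medians of 14.4 in X1 and 3.46 in Xins at a start, and of 17.3 and 7.06 beside it. In regions higher in Xins the medians were -1.22 at a start and -1.77 in the 42 regions 201 to 1000 bases away, but a size of 2 was reached by similar shares, 151 of 400 (37.8%) and 17 of 42 (40.5%).

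**Figure D3:**
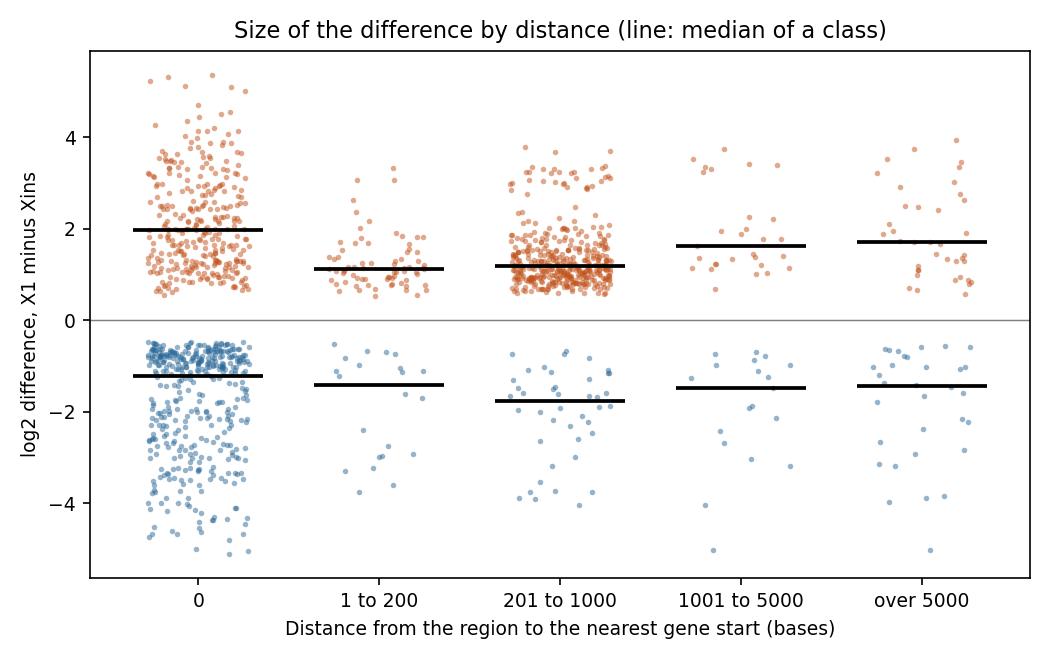
Log2 difference (X1 minus Xins, on log2(normalized count + 1)) of every region by its distance to the nearest gene start (bases), orange for regions higher in X1 and blue for regions higher in Xins, with black lines at class medians. Orange points at distance 0 have a median of 1.96 and reach 5.37, and those at 201 to 1000 bases gather near their median of 1.19, while blue points at distance 0 gather above their median of -1.22 with a long tail to -5.11.

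The small differences lay in other places in each class. Of the 206 regions higher in X1 by less than 1 on the log2 scale, 130 (63.1%, 56.1% to 69.7%) lay 201 to 1000 bases from a start and 39 (18.9%, 13.8% to 24.96%) covered one. Of the 187 regions higher in Xins by less than 1, 162 (86.6%, 80.9% to 91.2%) covered a start and 4 lay at 201 to 1000 bases. Both kinds were well enriched in the other population, with medians of 12.6 in Xins and 16.4 in X1. Among differences of at least 3 the classes were more alike, since 66 of 107 regions higher in X1 (61.7%, 51.8% to 70.9%) and 78 of 100 higher in Xins (78.0%, 68.6% to 85.7%) covered a start, and median enrichments in the other population were 0.81 and 0.26.

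Regions over 2000 bases had the largest median differences in both classes. Those over 2000 and up to 3000 bases had median log2 differences of 2.25 in X1 and -2.96 in Xins, and the 18 and 9 regions over 3000 bases had 3.05 and -3.88. Below that the classes differed. In X1 the medians were 1.45 at 1000 bases, 1.22 at 1100 to 1500 and 1.15 at 1600 to 2000, so they were lower in the longer of these regions. In Xins they were -0.96, -0.92 and -1.79. A region is as long as the stretch over which a difference was found, so length is not independent of the comparison.

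The regions named below for size, length, level, enrichment or distance were picked among called regions whose groups did not overlap. Their p-values and the separation of their libraries are thus a description. By log2 difference, the largest in favour of X1 was a region of 2800 bases over the start of gene SMED30010424 (scaffold v31.001348, 72901 to 75700). Its normalized counts were 144 and 153 in X1 and 0.0 and 12.0 in Xins, where 12.0 stands for 14 reads. Both X1 values lay far above both Xins values (log2 difference 5.37, SE 1.28, limma adjusted p = 0.0183). With reads pooled over libraries and scaled by the worth of a read, the level was 14.98 times as high in X1 (95% counting interval 8.87 to 27.5), and the enrichment over input was 24.6 in X1 and 0.57 in Xins. The second, over 2 annotated starts on v31.000765 (82701 to 85300, nearest identifier SMED30002927), had 54.8 and 53.1 in X1 against 0.0 and 0.86 in Xins (log2 difference 5.33, SE 0.43, limma adjusted p = 0.00333). A single Xins read underlies it, so the pooled ratio of 74.4 has an interval from 13.2 to 2949.

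The next 4 regions higher in X1 also covered a start, were 2300 to 2800 bases long, and each had a first-listed Xins library at 0.0. Since 1 read of that library is worth up to 4.56, the order by log2 difference rests partly on these 0.0 values. By pooled ratio, the region on v31.001348 was below those on v31.000765, v31.000688, v31.000099 and v31.000226. On v31.000226 (71701 to 74500) the normalized counts were 85.4 and 111 in X1 and 0.0 and 6.86 in Xins, a pooled ratio of 18.2 (9.18 to 42.4). On v31.001255 (37101 to 39600) they were 97.5 and 118 against 0.0 and 10.3, a ratio of 13.1 (7.43 to 25.5). Those on v31.000688 (121901 to 124200) and v31.000099 (231401 to 233900) rested on 4 Xins reads each, with ratios of 26.4 (10.2 to 97.4) and 25.7 (9.97 to 95.004).

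By log2 difference, the largest in favour of Xins was a region of 2900 bases over the start of gene SMED30027460 (v31.000532, 123201 to 126100). Its normalized counts were 0.0 and 3.30 in X1 and 77.5 and 64.3 in Xins, so that both Xins libraries were high (log2 difference -5.11, SE 0.78, limma adjusted p = 0.00832). The pooled ratio was 26.1 (14.3 to 52.4), and the enrichment was 0.22 in X1 and 12.98 in Xins. The region of 2800 bases at SMED30005949 (v31.000843, 7901 to 10700) had 0.0 and 0.55 in X1, where 0.55 stands for 2 reads, and 41.0 and 39.5 in Xins (log2 difference -5.05, SE 0.36, limma adjusted p = 0.00306). Its pooled ratio was larger than that of the first, at 93.7 (24.7 to 793).

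Of the next 4 regions higher in Xins, that on v31.001030 (104301 to 107700) was the best covered, with 1.84 and 2.75 in X1 and 95.7 and 112 in Xins (pooled ratio 42.9, 23.8 to 84.9, limma adjusted p = 0.00306). The region on v31.000265 (155901 to 158300) had 0.92 and 0.28 in X1, 1 read each, and 36.5 and 49.8 in Xins (ratio 112, 29.9 to 948). In contrast to the X1 side, a pair of the 6 lay away from a start. The region on v31.000691 (114501 to 117600) was 22360 bases from the nearest and had 1.84 and 0.83 in X1 against 82.1 and 66.1 in Xins (ratio 64.8, 26.8 to 204). The region on v31.000742 (20201 to 22200), 1711 bases from a start, had no read in either X1 library and 27.4 and 36.9 in Xins. Against a floor of 3 reads over the X1 libraries, it was at least 55.7-fold higher in Xins with the 49 Xins reads taken as exact, and the 95% counting interval of the pooled ratio starts at 43.6.

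**Figure D4:**
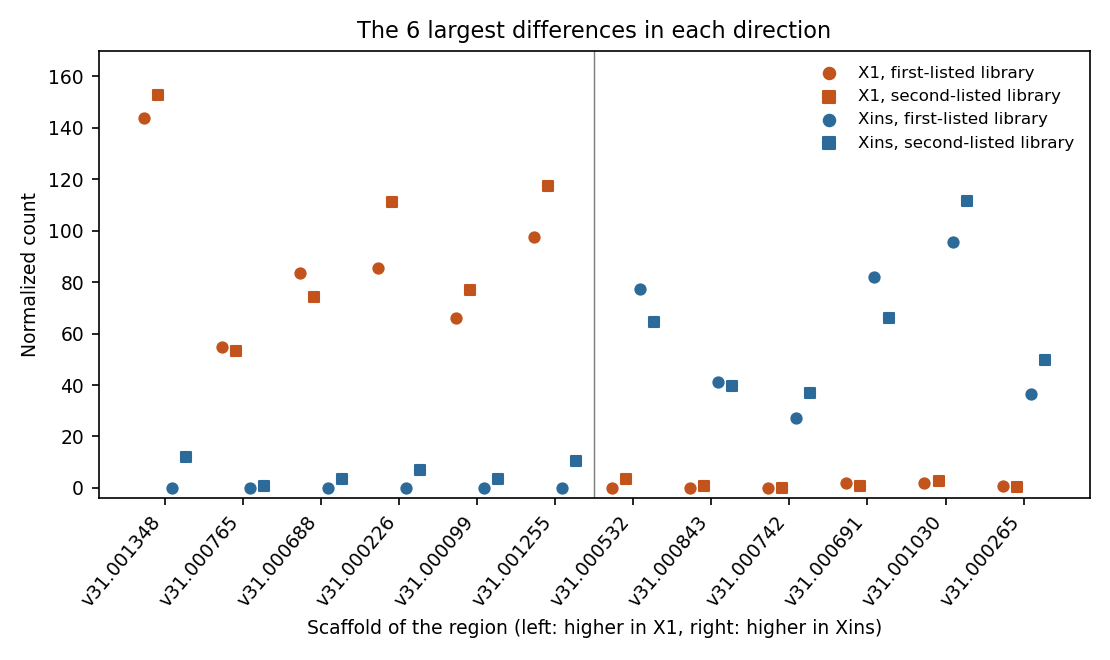
Normalized count of each library (circles first-listed, squares second-listed) in the 6 regions with the largest log2 difference in each direction, named by scaffold, X1 in orange and Xins in blue. All X1 points of the left 6 regions lie at 53.1 or above and their Xins points at 12.0 or below, and in the right 6 regions all Xins points lie at 27.4 or above and their X1 points at 3.30 or below.

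The other group was at 0 in both libraries at 12 regions higher in X1 and 7 higher in Xins. The same floor gives bounds of at least 3.62-fold to at least 6.84-fold for the 12 and of at least 14.8-fold to at least 55.7-fold for the 7. They take the reads of the higher group as exact. The floor of 3 reads is a level of about 2.16 in the Xins libraries and of 0.635 to 0.642 in the deeper X1 libraries, and the highest value of a library of the higher group was 16.1 in the 12 and 36.9 in the 7. At least 1 library of the other group was at 0 at 88 and 47 regions.

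The longest region of all was higher in Xins and covered 2 starts within 4800 bases (v31.000477, 88701 to 93500). It had 2.75 and 5.51 in X1 against 100 and 125 in Xins (pooled ratio 24.9, 16.0 to 40.4, limma adjusted p = 0.00349). The next longest on that side, of 4500 bases each, were unlike each other. That on v31.000000 (200901 to 205400) had 1.84 and 1.38 in X1 against 63.8 and 66.9, while that on v31.000258 (153101 to 157600) kept 28.5 and 26.2 in X1 against 95.7 and 131. The longest region higher in X1 had 4600 bases and 2 starts (v31.000654, 24001 to 28600), with 124 and 130 in X1 and 4.43 and 12.9 in Xins (ratio 11.2, 6.83 to 19.7, limma adjusted p = 0.00601). The following ones, on v31.000031 (293301 to 297700) and v31.000375 (6201 to 10400), had ratios of 11.1 (7.06 to 18.5) and 3.51 (2.71 to 4.63).

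The regions with the highest normalized counts, summed over their whole length, fell far short of the largest differences. Their log2 differences were 1.19 to 1.77 on the X1 side, around the class median of 1.36. On the Xins side they were -1.02 to -0.71, smaller in size than the class median of -1.37. On the X1 side all 3 lay 303 to 538 bases from a start rather than on it. The highest (v31.000124, 202501 to 205700) had 234 and 235 in X1 against 72.9 and 63.5 in Xins (log2 difference 1.77, SE 0.13, limma adjusted p = 0.00306), and the second (v31.000399, 150101 to 153100) had 235 and 224 against 95.7 and 105. The third, on v31.000381 (37901 to 40900), had 222 and 234 against 72.9 and 65.2. On the Xins side all 3 covered a start. The highest (v31.000064, 74701 to 76700) had 85.4 and 103 in X1 against 187 and 170 in Xins (log2 difference -0.92, SE 0.15, limma adjusted p = 0.00867). Those on v31.000090 (279501 to 282400) and v31.000808 (15701 to 17600) were 1.78 times (1.495 to 2.11) and 1.66 times (1.40 to 1.97) as high in Xins by pooled reads.

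The highest enrichments over input reached 65.4 among the named regions higher in X1 (v31.001352, 22101 to 23700, 9.54 in Xins) and 267 among those higher in Xins (v31.000997, 67001 to 68000, 15.9 in X1). The normalized counts of that Xins region were unremarkable, 27.9 and 25.6 in X1 and 48.7 and 53.2 in Xins, so its ratio of enrichments is much larger than its ratio of counts of 2.01 (1.48 to 2.71). The same held on v31.001193 (68101 to 69400), with enrichments of 9.20 and 172 beside a ratio of counts of 2.57 (1.65 to 3.98), and on v31.000220 (44101 to 45100), with 21.0 and 103 beside 1.59 (1.27 to 2.00). The depth of the inputs is not in the tables, and its part in these values was not tested. The other named regions on the X1 side, v31.000171 (104701 to 106000) and v31.001356 (41801 to 42800), had enrichments of 61.4 and 59.3 in X1 and 25.8 and 9.17 in Xins.

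Far from any annotated start, the largest distance was 230605 bases, for a region of 2900 bases higher in X1 (v31.000031, 66301 to 69200). It had 98.2 and 86.5 in X1 against 9.12 and 6.00 in Xins (log2 difference 3.47, SE 0.29, limma adjusted p = 0.00347) with an X1 enrichment of 25.7. A region on v31.000158 (160701 to 163500) was much like it, with 114 and 101 against 9.12 and 7.72, at 159847 bases. Between them in distance, at 160746 bases, the region on v31.000094 (169701 to 170900) had 42.2 and 55.3 against 18.2 and 16.3. On the Xins side, the region on v31.000723 (131901 to 134100), 118742 bases away, had 7.34 and 2.48 in X1 against 45.6 and 35.2 in Xins (ratio 10.2, 5.81 to 18.9). The regions on v31.000199 (199201 to 200900) and v31.000007 (62801 to 64700) differed less, with ratios of 1.58 (1.26 to 1.99) and 1.49 (1.25 to 1.76). The 39 regions higher in X1 that were more than 5000 bases from a start had a median X1 enrichment of 15.3, near the 16.3 of the class.

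The smallest differences listed were 0.52 on the log2 scale in favour of X1 (v31.000603, 50401 to 51700, limma adjusted p = 0.0146) and -0.47 in favour of Xins (v31.001109, 120701 to 121900, limma adjusted p = 0.077). In the first, the normalized counts were 129 and 127 in X1 and 91.2 and 86.6 in Xins. In the second, they were 65.2 and 56.4 against 72.9 and 96.9, so the groups did not overlap, the pooled ratio was 1.59 (1.28 to 1.97), and the limma threshold was missed.

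The regions lay on 840 scaffolds, of which 481 held 1 region and 182 held regions of both classes. On v31.000560, a region of 3500 bases at a start (124201 to 127700) had 136 and 121 in X1 against 9.12 and 7.72 in Xins, and another at a start (38901 to 40600) had 0.92 and 1.93 in X1 against 18.2 and 27.5 in Xins (limma adjusted p = 0.00306 and 0.00584). On v31.000017, the region from 209801 to 211900 was higher in X1 by a ratio of 9.93 (4.75 to 24.97), and that from 310801 to 315100 was higher in Xins by a ratio of 31.1 (14.98 to 74.8). On v31.000237, the region from 126901 to 127900 had 9.18 and 9.36 in X1 and no read in Xins, and that from 3201 to 5300 was higher in Xins by a ratio of 23.9 (11.3 to 58.0). Genes of 1 scaffold could thus differ in opposite directions.

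At some genes the opposite directions met at a single start. Of the 2025 gene identifiers listed, 619 had a region higher in X1 beside the start and none over it, 422 had a region higher in Xins over the start and none beside it, and 348 had a region higher in X1 over it and none beside it. At 18 identifiers, in 17 pairs of regions, the region over the start was higher in Xins and a region 260 to 939 bases from the start was higher in X1. The reverse arrangement was listed for 4 identifiers. Regions over and beside the start were both higher in Xins at 9 identifiers and both higher in X1 at 2. Among all listed regions, 90.6% of those 201 to 1000 bases from a start and 44.1% of those at a start were higher in X1. Nothing is thus read from the 18 against the 4. Both members passed limma at 7 of the 17 pairs with Xins higher over the start, while limma called 88.4% of all 1377 regions singly. These 7 pairs were chosen after their values were seen. On v31.000241, the region over the start (103601 to 104800) had 22.03 and 28.1 in X1 against 63.8 and 48.0 in Xins (log2 difference -1.12, SE 0.25, limma adjusted p = 0.0148). The region 812 bases away (105201 to 106400) had 28.5 and 21.5 in X1 and only 4.56 and 4.29 in Xins (2.25, SE 0.33, limma adjusted p = 0.00786). Both regions are 1200 bases long, so their levels can be set side by side. Per 1000 bases, X1 had 20.9 over the start and 20.8 beside it, while Xins had 46.6 and then 3.69.

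The pair on v31.001217 had another course. Its region over the start (68401 to 69400) had 19.5 and 20.6 in X1, below the 44.3 and 39.5 in Xins, and the adjoining region (69401 to 71100) had 99.4 and 82.8 in X1, above the 31.02 and 37.8 in Xins (limma adjusted p = 0.0129 and 0.00667). Per 1000 bases, X1 went from 20.04 over the start to 53.6 beside it, and Xins from 41.9 to 20.2. On v31.000186 (192201 to 193200 over the start, 191101 to 192200 beside it), X1 had 32.2 and 29.95 per 1000 bases in these regions and Xins 55.5 and 8.31. On v31.000330 (54001 to 55100 and 55001 to 56400), X1 had 41.6 and 46.3 and Xins 70.3 and 21.4. Over all 17 pairs, the Xins level per length was lower beside the start than over it at 15, and the X1 level was higher beside the start at 11. The pairs were picked for a lower Xins to X1 ratio beside the start, so these counts are a description.

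**Figure D5:**
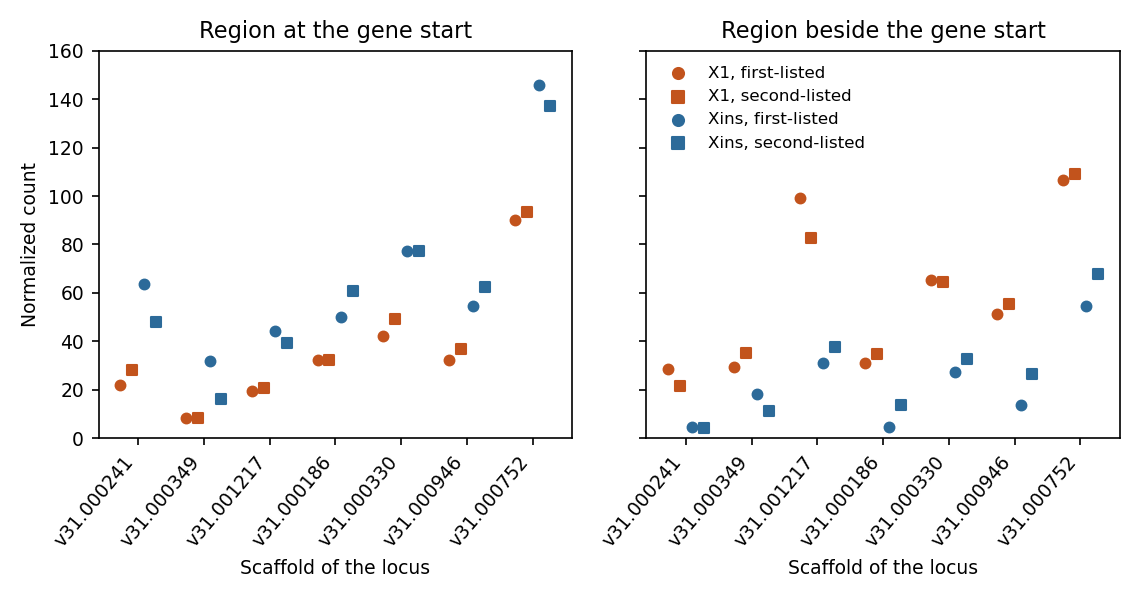
Normalized count of each library (circles first-listed, squares second-listed, X1 orange, Xins blue) at the 7 loci where limma called a region over the gene start (left panel) and a region beside it (right panel) in opposite directions. At every locus the blue points are above the orange points in the left panel and below them in the right panel, for example 63.8 and 48.0 over 22.03 and 28.1 at v31.000241 on the left.

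A region could cover several annotated starts. Among the regions over a start, this was so for 36 of 315 higher in X1 (11.4%, 8.13% to 15.5%) and for 48 of 400 higher in Xins (12.0%, 8.98% to 15.6%), similar shares, with up to 4 and 3 starts. Their median log2 differences were 2.12 and -1.46, against 1.91 and -1.18 for regions over 1 start, and their median lengths were 2150 and 1800 bases against 1900 and 1600.

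The regions were then laid against those listed after RNAi, which came from other libraries. Regions of the *set1* table of X1 cells overlapped 137 of the 862 regions higher in X1 by at least 1 base (15.9%, 13.5% to 18.5%) and 7 of the 515 higher in Xins (1.36%, 0.55% to 2.78%). The *mll* table of X1 cells, which lists fewer regions, overlapped 37 (4.29%) and 13 (2.52%). With the *set1* table of Xins cells the overlaps were 14 (1.62%) and 2 (0.39%), and with the *mll* table of Xins cells 1 (0.12%) and 1 (0.19%). These Xins tables list only 106 and 12 regions, against 554 and 306 in the X1 tables, so the counts cannot be compared between cells. Of the regions in the *set1* whole-worm table, overlaps were found at 552 regions higher in X1 (64.0%) and at 233 higher in Xins (45.2%). By place, 415 of the 479 regions higher in X1 that lay 1 to 1000 bases from a start were met (86.6%, 83.3% to 89.6%), and 99 of the 315 over a start (31.4%, 26.3% to 36.9%). Regions higher in Xins showed the reverse, with 21 of 64 beside a start (32.8%, 21.6% to 45.7%) and 191 of 400 over one (47.8%, 42.8% to 52.8%). The *mll* whole-worm table met 479 regions higher in X1 (55.6%) and 190 higher in Xins (36.9%). By place, it met 73.7% beside a start and 29.5% over one in X1, and 23.4% and 40.0% in Xins. The whole-worm tables list many more regions than those of sorted cells, so these shares describe the tables and carry no test. The *set1* and *mll* RNAi also ran for different times, so their overlaps are not a like comparison.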

How the data were processed

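The authors deposited 7 tables made with diffReps, which compares read counts between groups of libraries in windows. Per the labels, CASAVA 1.8.2, Bowtie and MACS2 were used upstream, and the genome build is not given in the sources used here (scaffold names begin with v31). Each line pairs a region with a gene. The deposited normalized counts hold 2 libraries in 1 cell without replicate numbers, so they are called first-listed and second-listed. The authors also deposited a mean signal per group and the enrichment over input, a ratio. Their fold changes, p-values, adjusted p-values and window statistics were not used.

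The truncated row was dropped, which left 2250 complete rows, and lines were merged to 1377 regions. Cells were split, and log2(normalized count + 1) of 2 against 2 libraries was fitted with limma 3.58.1 (trend on the mean, Benjamini-Hochberg over 1377 regions, threshold 0.05) in R 4.3.3, which was tested on simulated data. The class of a region is the sign of its difference. Reads were recovered as whole multiples of the worth of 1 read (0.275 to 0.929 in X1, 0.858 to 4.56 in Xins), within a tolerance of 0.1 read. For pooled ratios, the reads of a group were divided by its relative depth, the sum over its libraries of the reciprocal of the worth of 1 read, and exact binomial 95% intervals cover counting error. No count model with a spread between libraries was fitted to the recovered reads. Other steps used Python 3.11.15.

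Named regions had called, non-overlapping groups and at least 20 normalized counts in both libraries of the higher group. The 6 with the largest difference, and the 3 longest, highest in level, highest in enrichment and farthest from a start were taken in each direction, plus the smallest difference and up to 3 scaffolds with both classes, taken from all regions, called or not. Members and lists were chosen with earlier results of these data known. Alternatives changed the pseudocount, the filter, the centring, the trend, library weights, the overlap and the libraries used. An exact binomial test on recovered reads was added after seeing the data.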

Additional observations from a re-analysis of the deposited data

How the results depend on the processing

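Counts of calls higher in X1 and in Xins stayed within 1.5 times of 774 and 443 with a pseudocount of 0.5 (754 and 437) or 5 (813 and 455), without a trend (717 and 401), with library weights (848 and 433) and in the binomial test on reads (862 and 509), which was added after seeing the data and allows for counting error alone. With a mean normalized count of at least 20, 1012 regions were left, and limma called 643 and 256. The share higher in X1 was then 68.9%, the Xins median -0.91, the share of regions higher in Xins at a start 82.2%, and the median enrichments 18.01 and 18.9. Centring moved the calls to 294 and 509 and the medians to 0.74 and -1.92, and 19 regions turned class. Leaving out 1 library gave 12 to 858 and 2 to 490 calls, the low counts without an X1 library. Among differences of at least 1, the shares at a start were 42.1% and 72.6%, median enrichments 14.1 and 8.49, and the median length in Xins 1800 bases. Where 50% of the shorter region had to overlap, the *set1* table of X1 cells met 132 and 2 regions and that of Xins cells 10 and 1. The *set1* whole-worm table then met 476 and 211, and the *mll* one 370 and 168. By place, the *set1* whole-worm table met 76.2% beside a start and 26.3% over one in X1, and 23.4% and 45.25% in Xins. The *mll* whole-worm table met 57.4% and 24.1% in X1, and 20.3% and 35.5% in Xins. No paired analysis was possible because the cells of the table hold 2 libraries without replicate numbers.

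Depth limits the Xins side most. The first-listed Xins library has a median of 6 reads in a region, so low Xins levels and folds against them are imprecise. The listed regions are those with a difference, and nothing is known here of regions that were not listed or lie past the end of the table.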

Other observations

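At 52 regions higher in X1 by normalized count and 38 higher in Xins, the enrichment over input was lower in the population with the higher count. The 52 had a median log2 difference of 1.04 beside median enrichments of 15.1 in X1 and 22.3 in Xins, and the 38 had -0.75 beside 20.7 in X1 and 17.6 in Xins. Of the 52, 40 lay 1 to 1000 bases from a gene start, against 479 of all 862 regions higher in X1 (55.6%). Of the 38, 32 covered a start, against 400 of all 515 regions higher in Xins (77.7%).

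A single region on v31.000887 (53101 to 54100) was paired with 21 gene identifiers and 4 starts, while no other region had more than 7 identifiers. Its normalized counts were 46.8 and 51.2 in X1 and 36.5 and 22.3 in Xins, and it did not pass limma (log2 difference 0.76, SE 0.29, adjusted p = 0.0608). It was singled out after its values were seen.

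The regions are numbered up to 1533 and 156 numbers are not listed in the rows that were read. These were not analysed here.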
